A study of Mus musculus with 6 samples.

Results

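Gpnmb, Trem2, Apoe, Lyz2, Cd36, Cd68, Cd9, Lgals3, Abca1 and Lpcat2 are 10 genes used as markers of lipid-handling macrophages, and they were described here among the 55536 genes counted by RNA-seq in mouse satellite cells with and without the histone chaperone HIRA. The genes were listed by symbol, and the list was selected on results of the same comparison (the cKO minus control differences of such genes), so the differences of the 10 genes between genotypes are descriptions and carry no test. Satellite cells are the muscle stem cells that express the transcription factor Pax7. All samples came from adult male C57BL/6J mice carrying Pax7CreErt2, a tamoxifen-inducible Cre recombinase expressed from the Pax7 locus, and the tibialis anterior muscle had been injured with barium chloride 5 days before the cells were isolated. The 3 control samples were Pax7CreErt2;Hira fl/+ per the methods of the study and carry the genotype WT in the labels, and the 3 cKO samples were Pax7CreErt2;Hira fl/fl. Mice of both genotypes received a tamoxifen diet before injury. A control cell that recombines therefore loses 1 of its 2 Hira alleles, and the Cre acts only in cells that express Pax7. The sort kept cells positive for CD34 and ITGA7 and negative for the blood cell antigens CD45 and TER119 and for SCA1, a gate meant to remove leukocytes, macrophages among them, and SCA1-positive cells such as many muscle fibroblasts. Sorted cells were then grown for 48 h before total RNA was collected. The samples were described as independent RNA samples, with no statement that each came from a separate mouse, so p-values measure only the spread between these samples.

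Macrophages that clear dying cells and damaged membranes take up large amounts of lipid. They bind lipids and apoptotic debris through surface receptors, break them down in lysosomes, and hand cholesterol to apolipoproteins through ATP-driven transporters. In injured muscle, macrophages enter the tissue to remove necrotic fibres, and the same cells later switch to a repair state. None of the 10 genes is made by macrophages alone: galectin-3 and the tetraspanin CD9, for example, are made by many cultured cells.

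The libraries held 47944477 to 63323577 counted reads each, and 22404 genes had enough counts to be tested. Hira, on chromosome 16 from 18877037 to 18970309 in GRCm38, was read 375, 348 and 341 times in the control libraries (replicates 1, 2 and 3) and 161, 293 and 272 times in the cKO libraries. Its level fell by 0.43 on the log2 scale (SE 0.12, adjusted p = 0.0237 in edgeR's quasi-likelihood test), and cKO replicate 1 was the lowest. Without control replicate 1 the value was -0.34 and the adjusted p was 0.104. Without cKO replicate 1 it was -0.29 and the adjusted p was 0.0459. By RT-qPCR the study reported a strong fall of Hira in satellite cells of tamoxifen-fed cKO mice, and it did not detect HIRA protein there. The reads here were counted over the whole gene, which is a different measure. The myogenic identity of the cells was visible in every sample: transcripts of 12 myogenic markers summed to between 34750 and 35717 CPM in control and between 27904 and 29614 CPM in cKO. The muscle fibre genes Ttn (means 13807 CPM in control and 10039 CPM in cKO) and Myh3 (10901 and 9666 CPM) made up most of this sum. Pax7 stood at 39.7 ± 0.770 CPM (SD, n = 3) in control and 34.8 ± 1.83 CPM in cKO. CPM are the counts of a gene per 1000000 counts of its sample, after scaling for composition between samples (TMM in edgeR).

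The promoters of 4 of the genes are shown because they carry, or in the case of Gpnmb lack, short motifs that macrophage and lipid-sensing transcription factors are known to bind. The sequences are the 250 bases before the RefSeq gene start in GRCm38.p6, printed 5′ to 3′ on the strand of the gene. Capitals mark motif matches: GAGGAA or TTCCTC (core of the PU.1 site), TGAGTCA (AP-1 site, TGACTCA on the other strand), CACGTG (E-box read by the MiT and TFE lysosomal factors) and TGACC and TAACC held 5 bases apart (a direct repeat of the LXR type, read here on its reverse strand).
Gpnmb promoter, chr6:49036268-49036517, plus strand: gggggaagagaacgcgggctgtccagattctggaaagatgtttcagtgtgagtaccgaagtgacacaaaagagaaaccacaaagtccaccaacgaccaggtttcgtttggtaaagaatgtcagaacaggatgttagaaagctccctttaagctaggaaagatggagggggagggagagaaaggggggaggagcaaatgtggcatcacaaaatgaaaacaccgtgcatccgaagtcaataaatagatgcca
Trem2 promoter, chr17:48346151-48346400, plus strand: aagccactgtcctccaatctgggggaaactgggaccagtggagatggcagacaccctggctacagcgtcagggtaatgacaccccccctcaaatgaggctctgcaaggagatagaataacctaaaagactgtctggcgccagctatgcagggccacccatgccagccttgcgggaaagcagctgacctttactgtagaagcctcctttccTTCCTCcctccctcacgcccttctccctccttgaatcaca
Cd68 promoter, chr11:69666171-69666420, minus strand: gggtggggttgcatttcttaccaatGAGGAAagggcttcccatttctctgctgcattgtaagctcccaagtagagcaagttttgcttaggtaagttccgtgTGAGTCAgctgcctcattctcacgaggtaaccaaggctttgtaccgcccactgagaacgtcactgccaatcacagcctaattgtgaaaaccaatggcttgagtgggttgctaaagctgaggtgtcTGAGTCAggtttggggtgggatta
Abca1 promoter, chr4:53159896-53160145, minus strand: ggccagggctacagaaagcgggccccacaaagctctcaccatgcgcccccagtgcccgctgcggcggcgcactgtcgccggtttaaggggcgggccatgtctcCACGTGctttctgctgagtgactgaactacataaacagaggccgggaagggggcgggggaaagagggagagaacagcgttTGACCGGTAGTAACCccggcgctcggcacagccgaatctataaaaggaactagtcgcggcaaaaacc
Over 32851 such windows of the RefSeq set, 23.3% held the PU.1 core, 4.46% the AP-1 site, 6.02% the E-box and 0.0457% (15 windows) the LXR-type repeat, each counted on both strands. Among the 10 genes the PU.1 core was present in Apoe, Cd68 and Trem2, the AP-1 site in Cd68 at 2 places, and the E-box and the LXR-type repeat in Abca1. Counted from the gene start, the matches began at -40 in Trem2, at -225, -149 and -24 in Cd68, and at -147 and -67 in Abca1. The motif letters do not overlap with each other in these windows. The matches are descriptions of the sequence, and binding was not measured.

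Among the surface receptors, Trem2 and Cd36 were higher in every cKO sample than in every control sample. Trem2, the receptor for phospholipids and lipoproteins that signals through DAP12, lies on chromosome 17 from 48346401 to 48354147 (ENSMUSG00000023992). It had few reads, 112, 108 and 77 for the control libraries and 159, 223 and 188 for the cKO libraries. Scaled, the control levels were 2.0, 1.72 and 1.27 CPM and the cKO levels 3.30, 3.71 and 3.36 CPM. Control replicate 3 was the lowest of the 6 samples and control replicate 1 the highest control, and the groups did not overlap. The control mean was 1.66 ± 0.370 CPM and the cKO mean 3.46 ± 0.224 CPM, a log2 difference of 1.06 (SE 0.14). The lowest Trem2 count carries a counting error of 11.4%, so part of its spread over samples is set by depth.

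Cd36, on chromosome 5 from 17781690 to 17888801 (ENSMUSG00000002944), encodes a scavenger receptor and fatty acid translocase. Its levels were 20.3, 19.0 and 18.9 CPM in control and 43.3, 45.1 and 42.9 CPM in cKO. The 3 cKO values lay close to each other and far above the 3 control values. The means were 19.4 ± 0.793 and 43.8 ± 1.17 CPM, a log2 difference of 1.18 (SE 0.04) or 2.26 times. The cKO coefficient of variation was 2.67%, the lowest of the 7 genes that were called higher.

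The lipid carrier Apoe and the cholesterol pump Abca1 were also higher in cKO, by different amounts. Apoe, on chromosome 7 from 19696109 to 19699188 (ENSMUSG00000002985), encodes the apolipoprotein that macrophages secrete with exported cholesterol. Its levels were 46.6, 45.3 and 46.3 CPM in control and 100, 116 and 98.4 CPM in cKO. The control samples were nearly identical (coefficient of variation 1.51%), whereas cKO replicate 2 stood above the other two cKO samples (9.12%). The log2 difference was 1.19 (SE 0.05). Abca1, on chromosome 4 from 53030787 to 53159895 (ENSMUSG00000015243), moves cholesterol and phospholipid out of the cell onto apolipoproteins. It had 7.10, 6.93 and 6.08 CPM in control and 9.96, 12.2 and 9.73 CPM in cKO. The groups did not overlap, cKO replicate 2 was again the highest, and the log2 difference of 0.67 (SE 0.09) was the smallest among the 7 genes called higher.

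Lpcat2, the enzyme that reacylates lysophospholipids and makes platelet-activating factor in inflammatory cells, did not follow the receptors. It lies on chromosome 8 from 92855339 to 92919279 (ENSMUSG00000033192) and had 1.93, 2.23 and 2.10 CPM in control and 2.3, 1.81 and 1.91 CPM in cKO. The groups overlapped, with cKO replicate 1 the highest of the 6 samples and cKO replicate 2 the lowest. The log2 difference was -0.07 (SE 0.13), and each sample held between 107 and 140 counts. A gene on the opposite strand, Gm45472, covers 8.47% of its exonic bases, and the strand setting used in counting is not given in the sources used here.

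The 3 lysosome-related genes were all higher in every cKO sample. Gpnmb, on chromosome 6 from 49036546 to 49070929 (ENSMUSG00000029816), encodes a transmembrane glycoprotein of lysosomes and melanosomes. Control replicates 1, 2 and 3 had 58.8, 61.1 and 61.4 CPM, and the cKO replicates had 146, 145 and 135 CPM. It was the gene of the 10 with the largest difference, 1.23 on the log2 scale (SE 0.04), or from 60.4 ± 1.41 to 142 ± 6.30 CPM. Lyz2, the lysozyme of myeloid cells, on chromosome 10 from 117277331 to 117282321 (ENSMUSG00000069516), had 81.8, 82.1 and 79.5 CPM in control and 179, 201 and 172 CPM in cKO. The coefficient of variation of the control values was 1.77%, and cKO replicate 2 was the highest. The log2 difference of Lyz2 was 1.18 (SE 0.05), and 5.96% of its 75-base transcript windows also occur in its neighbour Lyz1, so a small part of its reads cannot be placed between them. Cd68, the macrosialin of phagocyte endosomes, on chromosome 11 from 69664213 to 69666153 (ENSMUSG00000018774), had 9.87, 10.1 and 9.62 CPM in control and 17.7, 20.1 and 17.5 CPM in cKO. Its log2 difference was 0.90 (SE 0.06), lower than that of Gpnmb and Lyz2.

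Cd9 and Lgals3, which organise or crosslink proteins at the cell surface, did not share the increase. Cd9, a tetraspanin on chromosome 6 from 125460266 to 125494791 (ENSMUSG00000030342), had 62.3, 62.4 and 65.5 CPM in control and 66.7, 67.9 and 70.8 CPM in cKO. Every cKO sample lay above every control sample, but by little: the log2 difference was 0.11 (SE 0.04) and the gene was not called. It was called when reads were scaled by total counts only (0.14) and without cKO replicate 1 (0.13). The opposite-strand gene Gm26728 covers 10.67% of the exonic bases of Cd9. Lgals3, on chromosome 14 from 47367751 to 47386160 (ENSMUSG00000050335), encodes galectin-3, which binds glycans and marks damaged lysosomes. Its levels were 267, 261 and 253 CPM in control and 252, 205 and 227 CPM in cKO. Here the cKO samples were the lower ones, with cKO replicate 2 lowest and cKO replicate 1 just under the lowest control. The log2 difference was -0.19 (SE 0.05). The gene was called lower, and the call was lost in DESeq2 and when control replicate 1, control replicate 2, control replicate 3 or cKO replicate 3 was left out, at log2 differences between -0.21 and -0.17.

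**Figure D1:**
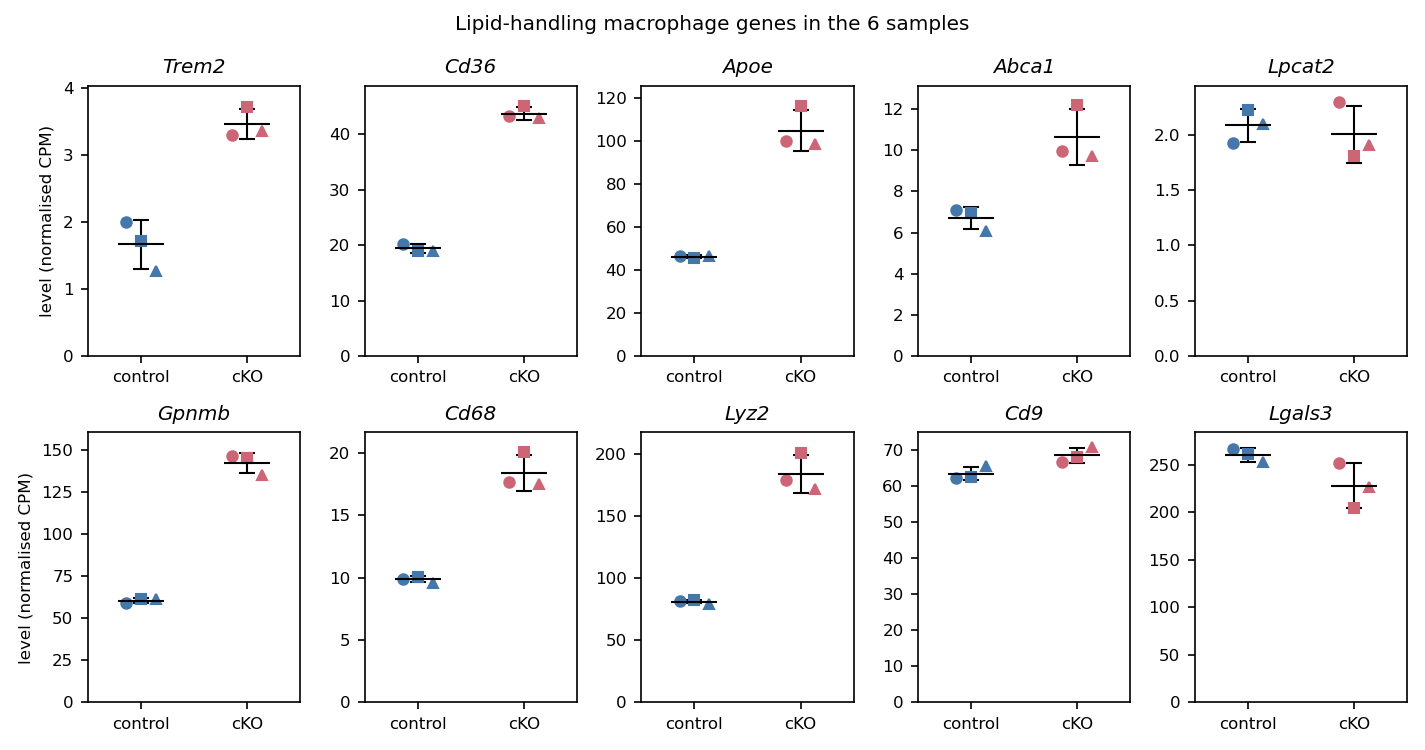
Levels of the 10 genes in each sample, in CPM after TMM scaling, with 1 panel per gene (control blue, cKO red; circle, square and triangle are replicates 1, 2 and 3; the bar is the mean and the error bar the SD of 3 samples). The groups are apart in 9 panels, with cKO above control in 8 of them and below it for Lgals3, and they overlap for Lpcat2.

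All 10 genes passed the filter on low counts. A gene was called when its Benjamini-Hochberg adjusted p was below 0.05, from the quasi-likelihood test of edgeR with the adjustment made over every tested gene. Of the 10, 8 were called, 7 higher and 1 lower, where 15.8% of all tested genes were called, 9.38% higher and 6.46% lower. The groups did not overlap for 9 of the 10 (8 higher, 1 lower), where this held for 31.8% of all tested genes. A log2 difference of 0.5 or more was seen for 7 of the 10 and for 6.74% of all tested genes. Because the genes were listed with this contrast known, nothing is read from these counts. The median log2 difference of the 10 was 0.98, beside -0.0011 for all tested genes. The 7 genes called higher were Gpnmb, Trem2, Apoe, Lyz2, Cd36, Cd68 and Abca1, and their summed level was 225 ± 1.92 CPM in control and 507 ± 33.1 CPM in cKO. Cd9, Lgals3 and Lpcat2 together went from 326 ± 5.28 to 298 ± 23.2 CPM. In RNA from a whole culture, a larger number of cells of a type and more RNA per cell cannot be told apart.

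Per length of transcript, the genes spanned a wide range. In control the order by RPKM (CPM divided by exonic length in kilobases) was Lgals3 (140), Lyz2 (61.7), Cd9 (31.0), Apoe (21.5), Gpnmb (9.28), Cd68 (7.85), Cd36 (5.40), Abca1 (0.647), Lpcat2 (0.616) and Trem2 (0.336). Abca1 and Lpcat2 overlapped in this order, and the other neighbours did not. In cKO, Lyz2 (140 ± 11.8 RPKM) stood first, and Lgals3 (123 ± 12.7 RPKM) overlapped with it. Apoe (49.0 RPKM) then lay above Cd9 (33.5 RPKM), which had been the higher of the pair in control. Trem2 (0.699 RPKM) and Lpcat2 (0.593 RPKM) closed the cKO order and overlapped. The gene with the most reads per length in control was thus Lgals3, which was lower in cKO, and the receptor Trem2 was at or near the bottom in both genotypes.

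The 7 genes were higher in each of the 3 cKO samples, most of them by the largest amount in cKO replicate 2. Measured as the log2 level in a cKO sample minus the control mean, the median over the 7 genes called higher was 1.12, 1.22 and 1.08 in cKO replicates 1, 2 and 3. Over all 10 genes it was 0.92, 1.10 and 0.92, a spread of 0.18, and over all tested genes it was 0.007, -0.0015 and 0.0031. Of the 7 genes, 6 were highest in cKO replicate 2, the exception being Gpnmb, which was highest in cKO replicate 1. In the same 7 genes, 6 were lowest in cKO replicate 3, and Trem2 was lowest in cKO replicate 1. Over all tested genes, 34.4% were highest in cKO replicate 2 among the cKO samples. The share of all tested genes lowest in cKO replicate 3 was not counted, so nothing is read from the number of genes lowest there. Lgals3 and Lpcat2 ran the other way, both highest in cKO replicate 1 and lowest in cKO replicate 2.

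The individual genes differed in how even their difference was. The 3 cKO differences of Cd36 lay between 1.15 and 1.22, a spread of 0.07, and those of Gpnmb lay between 1.16 and 1.27. Apoe and Lyz2 each had a spread of 0.23, and Abca1, with 0.57, 0.86 and 0.54 in cKO replicates 1, 2 and 3, had the widest spread among the genes called higher (0.32). Even in its lowest cKO sample, each of the 7 genes stood at least 0.54 above its control mean. The median spread over cKO samples was 0.20 for the 7 genes, beside 0.17 for all tested genes and 0.12 for the 14791 tested genes with at least the mean count of the lowest of the 10. The median coefficient of variation of the 7 genes was 2.51% in control and 8.03% in cKO, where that of all tested genes was 4.92% and 6.33% and that of the 14791 genes with such counts was 3.11% and 4.25%. Over all 10 genes it was 2.78% in control and 8.24% in cKO. The 7 genes were picked by their call, which favours a small spread within groups, and the 14791 genes were not matched to their counts. Nothing is therefore read from these medians. For Lyz2, the coefficient of variation in cKO was 8.45%.

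**Figure D2:**
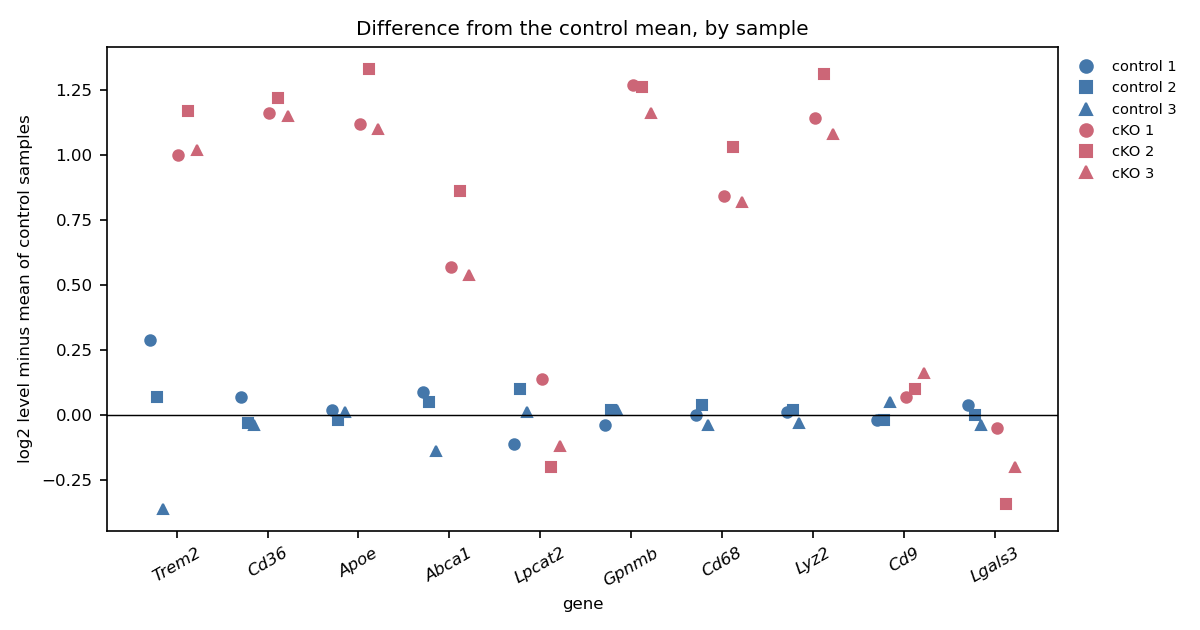
Log2 level of each gene in each sample minus the mean of the 3 control samples (control blue, cKO red; circle, square and triangle are replicates 1, 2 and 3; the line marks 0). The cKO points of 7 genes lie between 0.54 and 1.33, with cKO replicate 2 highest in 6 of them, while Cd9, Lgals3 and Lpcat2 lie between -0.34 and 0.16.

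Relative to Lyz2, the genes formed a group whose ratios overlapped between the genotypes and a group whose ratios did not. In each sample the counts of a gene were divided by those of Lyz2, which removes the scaling between libraries. Apoe stood at 56.8% ± 1.54 of Lyz2 in control and 56.9% ± 0.779 in cKO, and Cd36 at 23.9% ± 0.859 and 23.9% ± 1.33. Gpnmb (74.5% ± 2.70 and 77.3% ± 5.08) and Trem2 (2.04% ± 0.427 and 1.88% ± 0.0633) also overlapped between genotypes. For these 4 genes the ranges of the genotypes overlapped, and Apoe and Cd36 had nearly equal means. Their log2 differences, between 1.06 and 1.23, were near the 1.18 of Lyz2, and the ratios restate this. Nothing is therefore read from the ratios of these 4 genes. For Gpnmb the control values, 71.9%, 74.4% and 77.3%, lay within the range of the cKO values, 81.8%, 71.8% and 78.4%.

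Cd68 and Abca1 had lower ratios to Lyz2 in cKO, although both were themselves higher there. Cd68 stood at 12.1%, 12.3% and 12.1% of Lyz2 in control and at 9.90%, 9.99% and 10.2% in cKO, with no overlap. Abca1 went from 8.26% ± 0.536 to 5.76% ± 0.251, again with no overlap. The ratio of Cd9 to Lyz2 went from 78.2% ± 3.68 to 37.4% ± 3.76, that of Lgals3 from 321% ± 4.89 to 125% ± 20.6, and that of Lpcat2 from 2.57% ± 0.192 to 1.10% ± 0.195. Because Lyz2 was itself higher in cKO, a gene with little difference between genotypes has a lower ratio there: every cKO ratio lay below every control ratio for 93.6% of all other tested genes, and nothing is read from the ratios of these 5 genes.

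**Figure D3:**
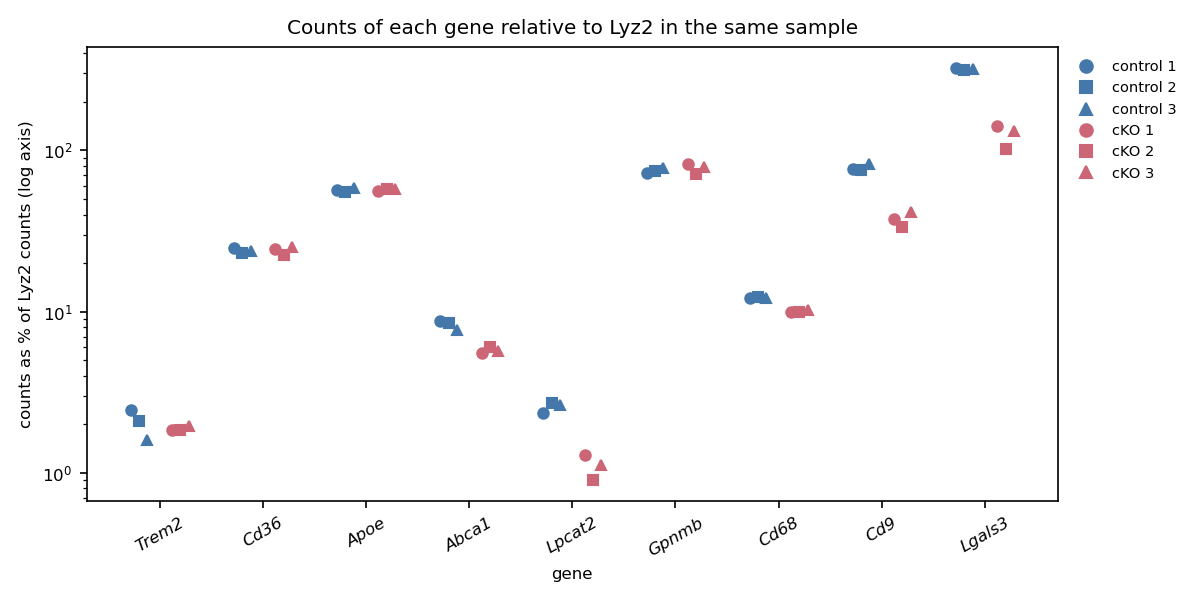
Counts of 9 of the genes as a percentage of Lyz2 counts in the same sample, on a log axis (control blue, cKO red; circle, square and triangle are replicates 1, 2 and 3). The genotypes overlap for Gpnmb, Trem2, Apoe and Cd36, and the cKO samples lie below the control samples for Cd68, Cd9, Lgals3, Abca1 and Lpcat2.

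Other genes of the same pathways were taken from 8 lists holding 133 genes, of which 113 were tested, 51 rose and 10 fell in cKO. In the counts of these and the later lists, rose and fell mean called higher and called lower. Over all tested genes, 9.38% were called higher and 6.46% lower. The lists were also drawn up with results of these data known. In the list of the lipid-associated macrophage programme, 17 of 22 tested genes rose and 2 fell, and the median log2 difference was 0.38. The cathepsin Ctss rose by 1.19 (SE 0.05, adjusted p = 1.0e-09), from 18.7 ± 0.847 to 42.7 ± 2.83 CPM. The macrophage elastase Mmp12 rose by 1.25 (SE 0.06, adjusted p = 1.5e-09), the beta-glucan receptor Clec7a by 1.26 (SE 0.10, adjusted p = 2.6e-07) and the proton pump subunit Atp6v0d2 by 1.20 (SE 0.10, adjusted p = 6.0e-07). The secreted phosphoprotein Spp1, whose level was 1686 ± 33.2 CPM in control samples and 1298 ± 69.6 CPM in cKO samples, fell by 0.38 (SE 0.04, adjusted p = 4.2e-06), and the tetraspanin Cd63 fell by 0.17 (SE 0.04, adjusted p = 0.00946).

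Genes that act with Trem2 also rose: in the TREM2 and DAP12 signalling list, 6 of 10 tested genes rose, 1 fell and the median was 0.68. Tyrobp, which encodes the adaptor DAP12, was read 99, 104 and 96 times in the control samples and 164, 252 and 215 times in the cKO samples, a log2 difference of 1.20 (SE 0.11, adjusted p = 2.6e-06). The kinase Syk, which acts downstream of DAP12, rose by 0.90 (SE 0.07, adjusted p = 3.5e-07), the exchange factor Vav1 by 0.81 (SE 0.18, adjusted p = 0.00499) and Ms4a7 by 1.40 (SE 0.14, adjusted p = 5.2e-06). Adam10, a protease that sheds TREM2 from the surface, fell by 0.18 (SE 0.05, adjusted p = 0.0284). Its call was lost under total-count scaling (adjusted p = 0.0622) and without control replicate 1 (0.137), control replicate 3 (0.0921) or cKO replicate 1 (0.0582), and with the replicate number as a block (0.0522).

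In cholesterol export, the pathway of Apoe and Abca1, 3 of 16 tested genes of the LXR target and efflux list rose and the median was 0.00. The 3 were Abcg1, the transporter that loads cholesterol onto HDL (0.78, SE 0.10, adjusted p = 4.5e-05), Nceh1, a cholesteryl ester hydrolase (0.39, SE 0.04, adjusted p = 1.5e-05), and Soat1, which esterifies cholesterol (0.36, SE 0.04, adjusted p = 8.5e-06). The count was 5 without control replicate 3 and when no filter on low counts was used. Nr1h3, which encodes LXR alpha, had a log2 difference of 0.61 (SE 0.32, adjusted p = 0.24). Of the MiT and TFE lysosomal factors, which read E-boxes such as the one printed for Abca1, 0 of 4 were called in edgeR or in DESeq2, 0 had an unadjusted p under 0.05, and the median was -0.03.

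Of 16 tested receptors and bridging proteins for lipoproteins and apoptotic cells, 9 rose and 2 fell, with a median of 0.21. The scavenger receptors Stab1 (1.20, SE 0.09, adjusted p = 2.0e-07) and Msr1 (1.07, SE 0.06, adjusted p = 1.7e-08) had differences of the size seen for Cd36. The receptor kinases for apoptotic cells, Mertk (0.65, SE 0.11, adjusted p = 0.000593) and Axl (0.40, SE 0.03, adjusted p = 2.8e-07), rose less. Vldlr (-0.17, SE 0.05, adjusted p = 0.0185) and the engulfment receptor Megf10 (-0.13, SE 0.03, adjusted p = 0.00691) fell. The call of Vldlr was lost without control replicate 1, control replicate 2 or cKO replicate 3, and that of Megf10 without control replicate 2 (adjusted p = 0.0548).

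In the PPAR and fatty acid list, 5 of 19 genes rose, 4 fell and the median was 0.10. Pparg, the fatty acid sensor that induces Cd36 in macrophages, rose by 0.32 (SE 0.06, adjusted p = 0.000935), and Angptl4, an inhibitor of lipoprotein lipase, by 0.31 (SE 0.06, adjusted p = 0.0029). Pdk4, a kinase that restrains glucose oxidation, fell by 0.27 (SE 0.04, adjusted p = 0.000114), and the retinoid receptor Rxrg fell by 0.32 (SE 0.06, adjusted p = 0.00165).

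Among relatives of the 10 genes, 6 of 17 tested genes rose and 1 fell, with a median of 0.09. Lyz1, the other mouse lysozyme, rose by 1.14 (SE 0.09, adjusted p = 6.0e-07), although it shares part of its sequence with Lyz2. The leukocyte tetraspanin Cd53 rose by 1.02 (SE 0.13, adjusted p = 6.2e-05), whereas the tetraspanin Cd82 fell by 0.16 (SE 0.03, adjusted p = 0.00205) and its relative Cd9 was not called. The galectin Lgals9 rose by 0.68 (SE 0.07, adjusted p = 5.4e-06) while Lgals3 was lower. Lpcat4, which like Lpcat2 reacylates lysophospholipids, rose by 0.41 (SE 0.10, adjusted p = 0.00984).

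The macrophage state list held 16 genes of resident, repair and inflammatory macrophages. Only 9 had enough counts to be tested, of which 5 rose, with a median of 0.67. The 4 that were not called were Arg1 (0.67), Tnf (0.53), Cd163 (-0.07) and Il1b (-0.16). Mrc1, the mannose receptor of repair macrophages, rose by 1.06 (SE 0.08, adjusted p = 2.6e-07), from 3.24 ± 0.184 to 6.76 ± 0.288 CPM. Folr2, a folate receptor of resident macrophages, rose by 0.99 (SE 0.17, adjusted p = 0.000789). The control samples held 17, 15 and 17 reads of Plac8 and the cKO samples 58, 72 and 53, a log2 difference of 2.02 (SE 0.22, adjusted p = 1.2e-05). Vsig4, a complement receptor of resident macrophages, had 4, 4 and 9 reads in the control samples and 16, 29 and 14 in the cKO samples (1.90, SE 0.41, adjusted p = 0.00486).

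**Figure D4:**
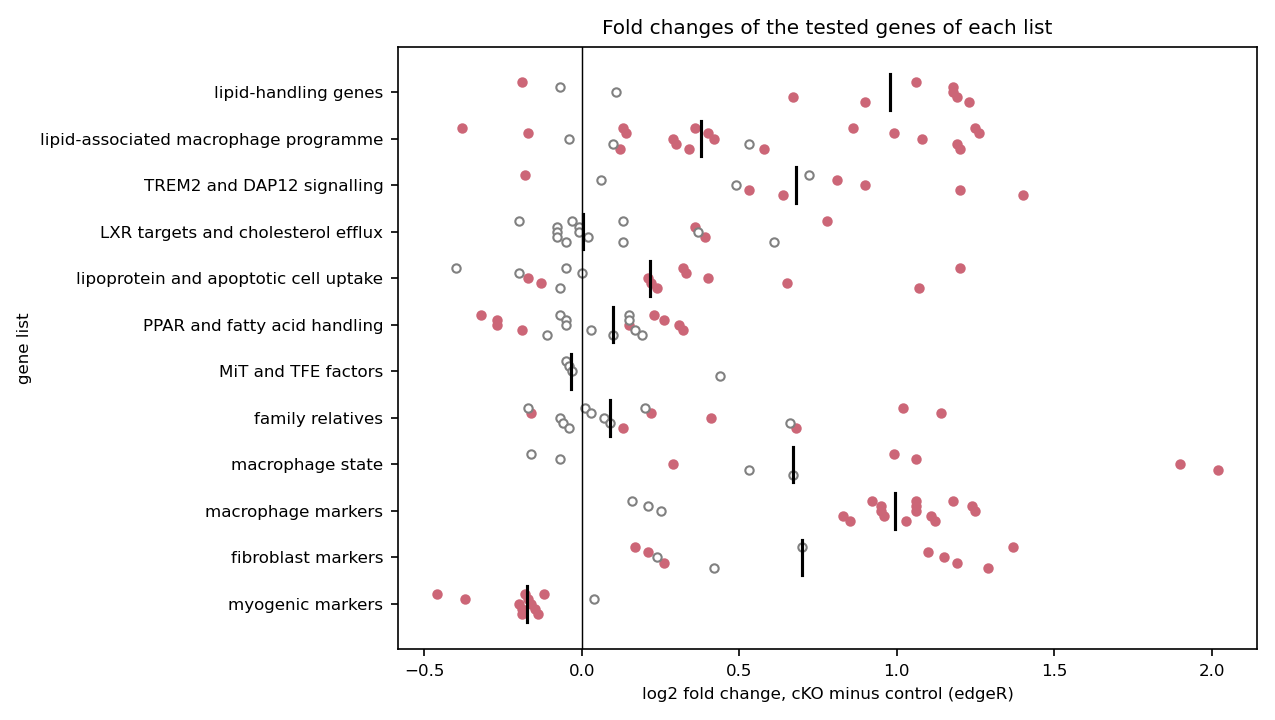
Log2 difference of cKO from control for each tested gene of the lists (filled red points were called, open grey points were not; black line, median of the list). The medians are 0.98 for the lipid-handling genes and 0.99 for the macrophage markers, 0.70 for the fibroblast markers, and -0.18 for the myogenic markers.

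Most macrophage markers were higher in cKO together with the 7 genes. Of 18 macrophage markers, 15 rose, with a median of 0.99, and their summed level was between 61.7 and 66.8 CPM in control and between 113 and 129 CPM in cKO. None of the defining macrophage markers was at 0. Ptprc, which encodes the CD45 antigen used in the sort, was read 72, 94 and 94 times in the control samples and 126, 169 and 167 times in the cKO samples, a log2 difference of 0.96 (SE 0.12, adjusted p = 5.2e-05). Csf1r, the receptor for the macrophage growth factor CSF1, rose by 0.92 (SE 0.08, adjusted p = 1.2e-06) and Adgre1, which encodes F4/80, by 1.11 (SE 0.10, adjusted p = 1.7e-06). The summed macrophage level was 122, 129 and 113 CPM in cKO replicates 1, 2 and 3, the same order of samples as in the sum of the 7 genes (499, 543 and 478 CPM). The sums of the fibroblast, endothelial, smooth muscle and Schwann markers had this order of cKO samples too. The sum of the 7 genes was between 339% and 367% of the macrophage marker sum in control and between 409% and 422% in cKO, without overlap. The part of macrophages in the results was not tested.

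Among other cells of injured muscle, 8 of 11 tested fibroblast markers rose, with a median of 0.70, and they summed to between 1258 and 1343 CPM in control and between 1688 and 1855 CPM in cKO. Pdgfra rose by 1.15, Dcn by 1.10 and Col1a1 by 1.29. Of 12 endothelial markers, 5 rose (24.8 to 26.8 CPM in control and 35.2 to 41.8 CPM in cKO, summed), and 2 were called without control replicate 2 or without cKO replicate 2, and 3 without control replicate 3. Of 8 smooth muscle and pericyte markers, 6 rose and 2 fell (3254 to 3309 and 3488 to 3578 CPM), and 5 were called without control replicate 2 and 4 without control replicate 3. Of the 12 myogenic markers, 11 fell, with a median of -0.18. Of 5 tested Schwann cell markers, 0 were called in edgeR or in DESeq2, and 4 had an unadjusted p under 0.05 toward cKO. Of 2 tested adipocyte markers, 0 were called by either tool and 0 had an unadjusted p under 0.05. The defining neutrophil genes S100a9 and Ly6g, the B cell gene Ms4a1 and the adipocyte gene Adipoq were at 3 counts or fewer in every sample. In cKO replicate 2, where 6 of the 7 genes were highest, the sums of the macrophage, fibroblast, endothelial, smooth muscle and Schwann markers were the highest of the cKO samples and the myogenic sum was the lowest. The part of these cell types in the results was not tested.

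The other antigens of the sort had smaller log2 differences than Ptprc. Cd34 rose by 0.49 (SE 0.11, adjusted p = 0.00649), and Itga7 fell by 0.12 (SE 0.03, adjusted p = 0.0271), a call that was lost without control replicate 1, 2 or 3, without cKO replicate 2 or 3, and under total-count scaling. Ly6a, which encodes SCA1, had a log2 difference of 0.24 (SE 0.10, adjusted p = 0.115).

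The pattern of the 10 genes over the 6 samples was summarised as the mean of their centred log2 levels, which was -0.33, -0.34 and -0.42 in control and 0.37, 0.41 and 0.31 in cKO. Gpnmb, Trem2, Apoe, Lyz2, Cd36, Cd68 and Abca1 had Pearson correlations of 0.96 or higher with it, Cd9 had 0.79, Lpcat2 had -0.26 and Lgals3 had -0.75. Among 16630 other genes with a mean of at least 1 CPM, the 10 most alike were Hmga1 (0.9993), Pdgfra (0.9990), Rtl1 (0.9988), Sgk1 (0.9988), Mrc1 (0.9984), Axl (0.9983), Col4a1 (0.9983), Anxa1 (0.9983), Col4a5 (0.9982) and Wnt5a (0.9981). Of these, 2 are in the pathway lists (Mrc1 and Axl) and 1 is a fibroblast marker (Pdgfra). All of these correlations are over 6 samples that share the difference between the genotypes, and they are given as descriptions only.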

How the data were processed

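RNA-seq of 6 samples was used, 3 control and 3 cKO. The authors made stranded total RNA libraries, sequenced single reads of 75 bases, aligned them to mm10 with Bowtie2 2.3.4.2 and deposited raw counts per gene from featureCounts 1.6.3. Bowtie2 does not split reads at exon junctions, so spliced genes lose some reads. A table of normalised values and a table of the authors' own comparison (fold changes and p-values, DESeq2 2.11.40.6) were not used. All 55536 gene identifiers were matched to GENCODE M21 (GRCm38). The 10 genes, the 19 gene lists and the tests were chosen with earlier results of these data known.

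Genes were filtered (filterByExpr), scaled (TMM) and tested with genotype as the only term in edgeR 4.0.16 (quasi-likelihood test, R 4.3.3). A Benjamini-Hochberg adjusted p under 0.05 over 22404 genes was a call. Log2 levels used a prior count of 2. SE is the log2 difference divided by the square root of its F statistic. The code was tested on simulated data. Named from each pathway list were up to 4 called genes with the largest difference and 10 or more counts throughout the group with the higher level, called genes against the main direction where there were 3 or fewer, the sort antigens, defining markers, and the 10 genes most like the pattern. Hira, Nr1h3 and the uncalled genes of the macrophage state list were named after their values were seen. Alternatives are not given for those uncalled genes. Alternatives were DESeq2 1.42.0, other scalings, no filter, a prior count of 0.5, a replicate block and leaving out each sample, applied to the cell type markers and the other named genes after seeing the data. Counting errors treat reads as independent, which PCR copies are not. Promoters came from RefSeq tables (GRCm38.p6), without bases in annotated exons.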

Additional observations from a re-analysis of the deposited data

How the results depend on the processing

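Under 11 alternatives the number of the 10 genes called stayed between 7 and 9 (8 as reported), and the 7 genes called higher were called under each. Leaving out each sample in turn gave 7 to 9 called, 7 to 8 called higher, a median log2 difference of 0.89 to 1.04, 2505 to 3887 calls over all genes and 53 to 64 pathway genes called. Genes called lower over all genes numbered 917, 934 and 960 without control replicates 1, 2 and 3, beside 1448. Over the single genes named, apart from the uncalled macrophage state genes, 21 values under an alternative lost a call (Adam10, Hira, Itga7, Lgals3, Megf10 and Vldlr). A further 2 gained one (Cd9), and no called value changed sign. Among the cell type lists, 3 endothelial markers were called in DESeq2 and with the replicate block, and 1 Schwann marker was called without the filter, under total-count scaling and without cKO replicate 1. DESeq2 gave Vsig4 no adjusted p. No pairing by replicate number was seen: deviations of same-numbered samples correlated at -0.0129, -0.00449 and -0.0145. These values cannot show whether the samples were handled in pairs. With the replicate block, 3152 genes were called over all genes, 8 of the 10 genes were called and their median was 0.99. Depth limits Trem2, Lpcat2, Vsig4 and the neutrophil and lymphocyte markers, which held few counts.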
